A study of Mus musculus with 19 samples.

Results

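Tumours grown from 4T1 cells with a knockdown of lactate dehydrogenase A (LDHA-KD) were compared with tumours from control 4T1 cells, all under control IgG. The comparison took every sample labelled with one of these 2 groups, 5 LDHA-KD and 4 control samples, which is 9 of the 19 samples of the series. The other 10 samples received anti-CTLA-4 and entered the shared estimate of spread and a few side-by-side values. Every gene in the count table was eligible: 16763 of 46983 had enough counts to be tested.

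4T1 is a mammary carcinoma line of BALB/c mice, and its cells were implanted in syngeneic BALB/cAnN hosts, which keep their immune system. IgG was first given 3 days after implantation, in 3 doses 3 days apart. Genotype was the only labelled difference between the groups. The knockdown construct, and whether the LDHA-KD cells are a pool or a single clone, are not given in the sources used here. Each sample is whole frozen tumour tissue, so tumour cells and host cells were measured together, and fewer cells of a type cannot be told apart from less RNA per cell. No label says that the numbered replicates came from separate animals, so the tests speak only to the variation among these samples.

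Lactate dehydrogenase interconverts pyruvate and lactate while recycling NAD+ and NADH. The A subunit predominates in glycolytic tissue and tumours and favours lactate formation, whereas the B subunit favours the return to pyruvate. Lactate leaves and enters cells through monocarboxylate transporters. Several of the genes in this chain, Ldha among them, are known targets of the hypoxia-inducible factors, whose core binding sequence is ACGTG.

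Polyadenylated RNA was counted per gene, with 31783272 to 40799761 gene counts in each of the 9 libraries and 22060 to 22935 genes with at least 1 count. Levels are given in CPM, a gene's counts relative to the library's total after scaling between libraries by trimmed means (TMM). Before that scaling, a floor of 3 counts is 0.0735 to 0.0944 CPM. Principal component 1, with 52.7% of the variance of the 9 libraries, separated the groups, with LDHA-KD scores from -39.3 to -27.9 and control scores from 32.3 to 58.6. Markers listed for the 4T1 line and luminal epithelium summed to 3361 to 3677 CPM in LDHA-KD and 4412 to 5698 CPM in control tumours, with 6 of 15 members lower and 2 higher.

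The targeted gene was low in every LDHA-KD tumour. Ldha (chromosome 7, 46841475 to 46855627, plus strand, GRCm38) measured 478, 469.9, 452, 506 and 519 CPM in LDHA-KD replicates 1 to 5. Control replicates 1, 3, 4 and 5 measured 1926, 1624, 1567 and 1283 CPM. The groups did not overlap, and the log2 fold change (log2FC, LDHA-KD against control, given throughout with its standard error) was -1.72 ± 0.11, with an adjusted p of 2.46e-09 by edgeR's quasi-likelihood test. The remaining transcript, a mean of 485 ± 27.2 CPM (SD, n = 5), includes whatever host cells contribute.

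The other lactate dehydrogenases did not pass the threshold. Ldhb, the B subunit, ranged from 4.34 to 8.41 CPM in LDHA-KD and 4.25 to 6.73 CPM in control tumours. Ldhd, a mitochondrial enzyme that oxidizes D-lactate, had a log2 difference of 0.50 ± 0.20 and an adjusted p of 0.0592 by edgeR. It passed by DESeq2 (adjusted p 0.0406) and in edgeR without LDHA-KD replicate 2 (0.0186) or without control replicate 3 (0.0425). Ldhc, the testis form, had too few counts to be tested. Lactate transporters divided. Slc16a1, the widespread monocarboxylate transporter MCT1, rose from between 352 and 442 CPM in controls to between 539 and 656 CPM, a log2 fold change of 0.64 ± 0.13. Slc16a7, the high-affinity transporter MCT2, rose from a lower level (log2FC 1.1 ± 0.25), and so did Emb, which encodes embigin, a chaperone of these transporters (log2FC 0.52 ± 0.13). In none of these 3 did the groups overlap. Slc16a3, the MCT4 exporter of glycolytic cells, ranged over 42 to 52.8 CPM in LDHA-KD and 38 to 60.9 CPM in control tumours and was not called.

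Across all genes, 5752 of 16763 passed an adjusted p of 0.05 (34.3%), 2814 higher in LDHA-KD tumours (16.8%) and 2938 lower (17.5%). These shares are the background for every count of list members given here. More than 2-fold differences were fewer, with 858 genes higher (5.12%) and 612 lower (3.65%). Of all genes tested, whether called or not, every LDHA-KD sample exceeded every control sample in 2537 (15.1%) and was below every control sample in 2552 (15.2%). The groups did not overlap in 78.8% of the called genes. The median log2 fold change over all genes was -0.002 and the median size of a called change was 0.575. Of the calls, 3959 (68.8%) were also made without each of the 9 libraries in turn.

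The same knockdown difference was measured in the 10 samples given anti-CTLA-4, which share no sample with the IgG groups. Of the 2814 genes called higher under IgG, 84.4% were also called higher there, against 20.2% of all genes tested. Of the 2938 called lower, 80.0% were also called lower, against 19.8% of all genes. No gene was called in the opposite direction. The test of the difference between the arms called 0 genes by edgeR, by DESeq2 and by limma-voom, with 415 genes at an unadjusted p under 0.05 in edgeR.

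**Figure D1:**
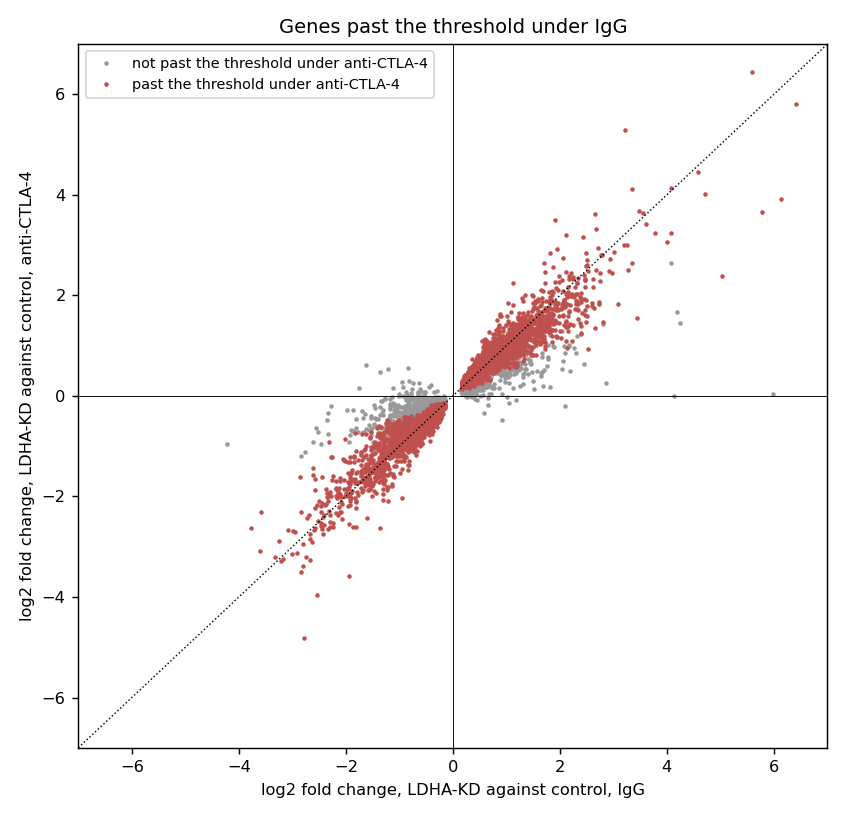
Log2 difference between LDHA-KD and control tumours under IgG (horizontal axis) and under anti-CTLA-4 (vertical axis) for the 5752 genes called under IgG, with red points also called under anti-CTLA-4 and grey points not. The points follow the dotted line of equal change, and 99.5% of the genes higher under IgG had the same sign under anti-CTLA-4.

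Most hypoxia-inducible genes fell. Of 19 members tested, 13 were lower and 0 higher, with a median log2 fold change of -0.58 against -0.002 for all genes. Without control replicate 1 the count of lower members was 8. Under anti-CTLA-4, 12 members were lower, with a median of -0.59. Promoter windows of Ldha and of a pair of lower members are printed from 250 bases before to 50 bases after a start that RefSeq gives for the gene (GRCm38.p6, written in the gene's direction), with ACGTG on either strand in capitals, because ACGTG is the core sequence bound by hypoxia-inducible factors. Ldha (chr7:46845554-46845853, plus strand) is shown as the targeted gene, followed by Ddit4 (chr10:59951721-59952020, minus strand) and P4ha2 (chr11:54100674-54100973, plus strand).
Ldha: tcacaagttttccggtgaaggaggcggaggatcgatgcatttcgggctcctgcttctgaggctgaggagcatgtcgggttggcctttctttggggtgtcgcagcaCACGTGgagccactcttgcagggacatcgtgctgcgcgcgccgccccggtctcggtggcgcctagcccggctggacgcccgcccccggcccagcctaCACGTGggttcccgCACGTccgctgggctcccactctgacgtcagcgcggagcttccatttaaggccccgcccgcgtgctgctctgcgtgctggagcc
Ddit4: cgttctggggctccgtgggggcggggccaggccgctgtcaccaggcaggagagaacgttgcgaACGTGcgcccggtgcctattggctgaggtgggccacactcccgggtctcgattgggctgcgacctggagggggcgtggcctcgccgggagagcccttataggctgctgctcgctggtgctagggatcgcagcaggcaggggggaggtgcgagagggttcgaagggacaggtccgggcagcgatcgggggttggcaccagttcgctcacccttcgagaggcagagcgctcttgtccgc
P4ha2: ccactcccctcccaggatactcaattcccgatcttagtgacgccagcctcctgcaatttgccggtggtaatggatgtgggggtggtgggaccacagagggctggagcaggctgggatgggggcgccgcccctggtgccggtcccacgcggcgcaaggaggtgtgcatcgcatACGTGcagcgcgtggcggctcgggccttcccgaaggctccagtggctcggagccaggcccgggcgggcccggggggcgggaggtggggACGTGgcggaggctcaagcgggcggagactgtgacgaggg
The printed Ldha window held 3 separate stretches with the core, 2 of them the palindrome CACGTG, the Ddit4 window 1 and the P4ha2 window 2. A second RefSeq window of Ldha, at chr7:46846832-46847131, held none, and neither did the window of Adm, a lower member of the list. Among RefSeq windows of this length, 19.6% of all windows and 24.1% of those of tested genes held ACGTG. It was in 9 of the 17 windows of the 11 lower hypoxia members matched in the RefSeq table, and in 4 of the 6 windows of the 5 members not called. Counted by gene, 8 of those 11 lower members and 4 of those 5 others had it in at least 1 window, against 27.9% of the tested genes with a window. A match is a string of letters and not a measured binding site.

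Ddit4, a brake on the growth kinase mTOR that hypoxia and stress induce, measured 90.4, 95, 92.5, 131 and 115 CPM in the LDHA-KD tumours and 285, 226, 210.4 and 187 CPM in the controls (log2FC -1.12 ± 0.13). Ndrg1, a stress- and differentiation-responsive gene, measured 689, 557, 635, 735 and 715 CPM against 1960, 1551, 1330 and 801 CPM (log2FC -1.08 ± 0.22). Its highest LDHA-KD tumour stood below the lowest control, although the controls spanned a wide range. P4ha2, a collagen prolyl hydroxylase subunit that is also on the collagen processing list, fell by 1.07 on the log2 scale, and Adm, the vasodilator peptide adrenomedullin, had a log2 fold change of -1.58 ± 0.32.

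Few glycolytic genes changed under IgG. Of 19 genes of glucose uptake and glycolysis, 3 were lower and none higher, a share near the 17.5% of all genes. Pgk1, phosphoglycerate kinase, had a log2 fold change of -0.56 ± 0.14, and Hk2, the inducible hexokinase, -0.42 ± 0.12. The count of lower members was 6 without control replicate 5 and 5 by DESeq2. Under anti-CTLA-4, 7 members were lower and none higher. Pyruvate entry and the tricarboxylic acid cycle had 6 lower and 1 higher of 21 genes, and 10 lower and 1 higher under anti-CTLA-4. Idh3a, a subunit of NAD-dependent isocitrate dehydrogenase, ranged over 109.7 to 126 CPM against 143 to 165 CPM. The kinases that restrain pyruvate dehydrogenase divided, Pdk1 (log2FC -0.52 ± 0.13) and Pdk3 (log2FC -0.43 ± 0.10) being lower and Pdk2 (log2FC 0.44 ± 0.13) higher. Of 12 listed genes, most of which regenerate cytosolic NAD+ or carry reducing equivalents to mitochondria, 3 rose and 1 fell. The risers included both aspartate-glutamate carriers, Slc25a13 (log2FC 0.59 ± 0.10) and Slc25a12 (log2FC 0.40 ± 0.07), and in neither did the groups overlap. The lower gene was Nnt, a mitochondrial transhydrogenase that makes NADPH (log2FC -0.31 ± 0.06). The nuclear subunits of respiratory complex I were below the background in both directions, with 2 higher and 3 lower of 37. A fit to only the 9 IgG samples gave 5 higher and 5 lower. Under anti-CTLA-4, 18 of the 37 were lower and none higher, with a median of -0.30 against -0.11 under IgG. No gene passed the test of the difference between the arms.

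Genes of sterol synthesis fell more often than they rose, and genes of sterol export rose more often than they fell. Of 24 genes of cholesterol synthesis and its control, 10 were lower and 1 higher, with a median of -0.21. Ebp, the sterol isomerase, measured 50.9, 45.8, 50.7, 35.1 and 50.7 CPM against 103, 87.6, 83.1 and 75 CPM (log2FC -0.90 ± 0.11), and the groups were well apart. Acat2, which makes acetoacetyl-CoA at the start of the pathway, had a log2 fold change of -0.88 ± 0.13, and Sc5d, a late desaturase, -0.56 ± 0.11. The exception was Dhcr7, the last reductase of the pathway, which rose from between 31.4 and 41.2 CPM in controls to between 51.7 and 62 CPM. In fatty acid synthesis 4 of 15 genes were lower, among them Me1, the cytosolic malic enzyme that supplies NADPH (log2FC -0.84 ± 0.13), and Scd2, a stearoyl-CoA desaturase (log2FC -0.68 ± 0.13). Of 11 genes of cholesterol efflux and the liver X receptors, 5 rose and none fell, a count of 3 without control replicate 1. Abcg4, a sterol transporter, was low in both groups (log2FC 1.46 ± 0.25), and Cyp27a1, which makes 27-hydroxycholesterol, ranged over 6.08 to 8.92 CPM against 1.85 to 5.33 CPM. Macrophages express several of these genes, and the 14 macrophage markers tested had 10 members higher, summing to 3466 to 4431 CPM in LDHA-KD and 1411 to 2987 CPM in control tumours. Their part in the sterol values was not tested.

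Genes of mitosis fell by small amounts with little spread. Of 20 genes of mitosis and the spindle, 16 were lower and none higher, with a median log2 fold change of -0.40. Under anti-CTLA-4, 17 were lower, with a median of -0.42. Cenpa, the histone variant that marks centromeres, measured 73.3, 68.5, 77.9, 69.3 and 68.5 CPM in LDHA-KD tumours and 139.9, 106, 115 and 109 CPM in controls (log2FC -0.72 ± 0.09). Ndc80, a kinetochore subunit that grips microtubules, ranged over 40.7 to 44.9 CPM against 59 to 79.2 CPM (log2FC -0.69 ± 0.14), and Kif23, a motor of cell division, over 71.7 to 85.8 CPM against 95 to 105 CPM (log2FC -0.42 ± 0.09). For all 3 genes the lowest control stood above the highest LDHA-KD tumour. Promoters of mitotic genes often carry the cell cycle homology region, TTTGAA, which represses them outside division. The windows of Cenpa (chr5:30666636-30666935, plus strand) and Ndc80 (chr17:71526808-71527107, minus strand) are printed because these genes changed most in the list, with TTTGAA on either strand in capitals.
Cenpa: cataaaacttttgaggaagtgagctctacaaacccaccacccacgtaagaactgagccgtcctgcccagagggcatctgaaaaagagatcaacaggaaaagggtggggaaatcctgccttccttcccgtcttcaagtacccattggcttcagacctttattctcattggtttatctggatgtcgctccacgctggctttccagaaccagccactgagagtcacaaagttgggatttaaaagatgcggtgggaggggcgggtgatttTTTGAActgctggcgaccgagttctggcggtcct
Ndc80: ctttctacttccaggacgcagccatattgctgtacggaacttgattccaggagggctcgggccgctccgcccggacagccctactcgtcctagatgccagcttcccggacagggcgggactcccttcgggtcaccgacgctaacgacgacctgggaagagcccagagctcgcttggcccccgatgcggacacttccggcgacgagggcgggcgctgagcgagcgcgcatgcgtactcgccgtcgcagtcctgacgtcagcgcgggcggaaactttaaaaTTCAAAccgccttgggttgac
TTTGAA was in 17.9% of all windows and 12.5% of those of tested genes. It was in 10 of the 13 windows of lower mitotic genes and in 2 of the 3 windows of members not called. CCAAT, another sequence of cell cycle promoters, was in 11 of those 13 windows and in all 3 of the others, against 37.0% of the windows of tested genes.

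Fewer genes of DNA replication passed the test. Of 20 genes of the MCM helicase and replication, 6 were lower and none higher. Rfc3, a subunit of the clamp loader, fell furthest among the named ones, from between 72.4 and 108 CPM in controls to between 43.8 and 56.3 CPM (log2FC -0.88 ± 0.12). In DNA repair, 8 of 20 genes were lower, a count of 5 without control replicate 4, including the mismatch repair gene Msh6 (log2FC -0.50 ± 0.07), and 1 was higher. The G1 regulators had 3 higher and 4 lower of 20, shares near those of all genes in both directions. Their median log2 difference was 0.023, with 10 members positive and 10 negative, so the list as a whole did not lean either way. Among the called members, Cdk6, a kinase that opens the cell cycle, was lower (log2FC -0.54 ± 0.08). Rb1, which restrains the cycle, was higher (log2FC 0.42 ± 0.10). Cdk2 and Cdkn2b were called as well, and their values are not given here. The 14 cytosolic heat shock genes had 6 members lower, with Hsp90ab1, the constitutive chaperone, at 1786 to 2038 CPM against 2426 to 2805 CPM. Hsph1, a nucleotide exchange factor for Hsp70, went the other way (log2FC 0.67 ± 0.10). Ribosomal protein genes were below the background in both directions, with 3 higher and 4 lower of 83. A fit to only the 9 IgG samples gave 10 higher and 9 lower, leaving out control replicate 3 gave 1 higher, and leaving out control replicate 1 gave 2 lower. Under anti-CTLA-4, 25 of the 83 were lower and none higher.

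**Figure D2:**
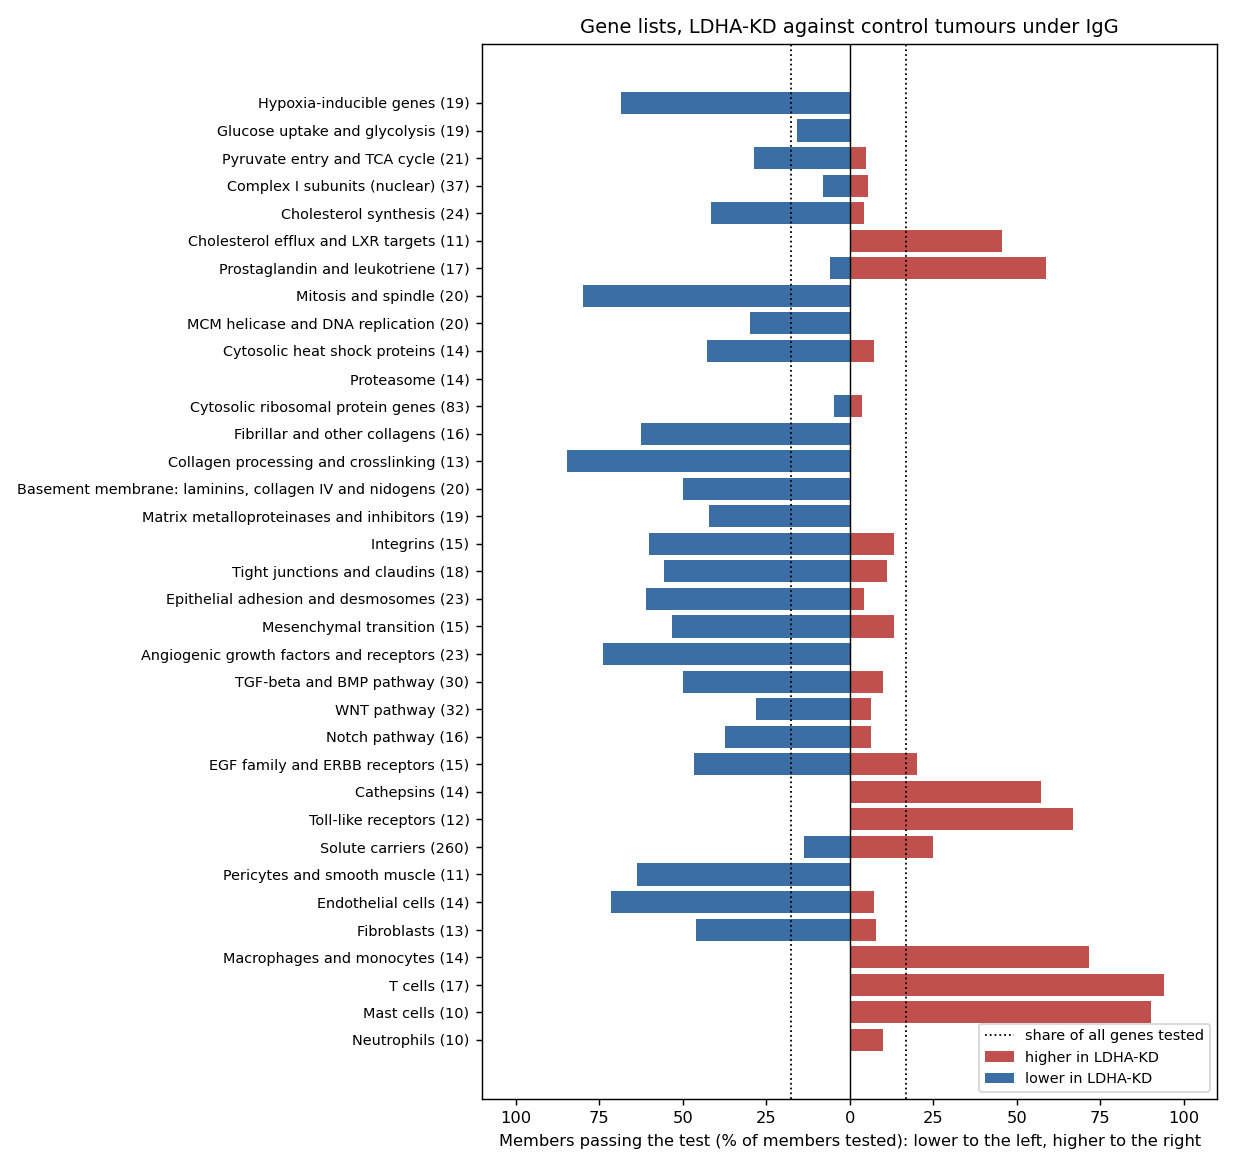
Share of the tested members of 35 gene lists that passed the test, higher in LDHA-KD tumours to the right and lower to the left, with the number tested in brackets and dotted lines at the shares of all genes (16.8% higher, 17.5% lower). Collagen processing, mitosis and angiogenic factors extend furthest to the left, and markers of T cells and mast cells furthest to the right.

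Extracellular matrix genes fell broadly under IgG. Of 16 listed collagens, 10 were lower and none higher, with a median of -0.72. Without control replicate 4 the count was 6. Over all 37 collagen chains tested, 14 were lower (37.8%) and 2 higher, with a median of -0.29. Col8a1, a short-chain collagen of vessel walls, measured 68.3, 104, 46.9, 74 and 66.3 CPM against 162, 151, 143 and 186 CPM (log2FC -1.16 ± 0.18), and Col6a3, a chain of microfibrillar collagen VI, 159 to 269 CPM against 302 to 573 CPM (log2FC -1.16 ± 0.24). The enzymes that hydroxylate, cleave and crosslink collagen were lower in 11 of 13, with a median of -0.70. Pcolce, an enhancer of procollagen cleavage, measured 89.5, 92.2, 82.8, 77 and 88.4 CPM in LDHA-KD tumours and 220.1, 216, 234 and 191 CPM in controls (log2FC -1.32 ± 0.13). Serpinh1, the collagen chaperone Hsp47, had a log2 fold change of -0.68 ± 0.08, and Plod2, a lysyl hydroxylase that sets the type of crosslink, -1.01 ± 0.12. No LDHA-KD sample reached the lowest control for any of these 3 genes.

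Under anti-CTLA-4 the collagen values lay closer to 0. There, 1 of the 16 collagens was lower and 1 higher, with a median of -0.03. Col5a2, a regulatory fibrillar chain, had a log2 fold change of -0.81 under IgG and -0.26 under anti-CTLA-4, and Col15a1, a collagen next to basement membranes, -0.80 and -0.29. The processing enzymes had 6 lower members under anti-CTLA-4, with a median of -0.32. No gene passed the test of the difference between the arms, so a difference in collagens between them is not shown. Of 13 fibroblast markers, a list that shares collagens with this one, 6 were lower and 1 higher under IgG, and none was lower under anti-CTLA-4, where 3 were higher. Without control replicate 4 the count of lower fibroblast markers under IgG was 3. Pdgfrb, a growth factor receptor of mural cells and fibroblasts, was lower (log2FC -0.91 ± 0.21), and Pdgfra, its relative on fibroblasts, was higher (log2FC 0.55 ± 0.14). The part of fibroblast content in the collagen values was not tested.

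**Figure D3:**
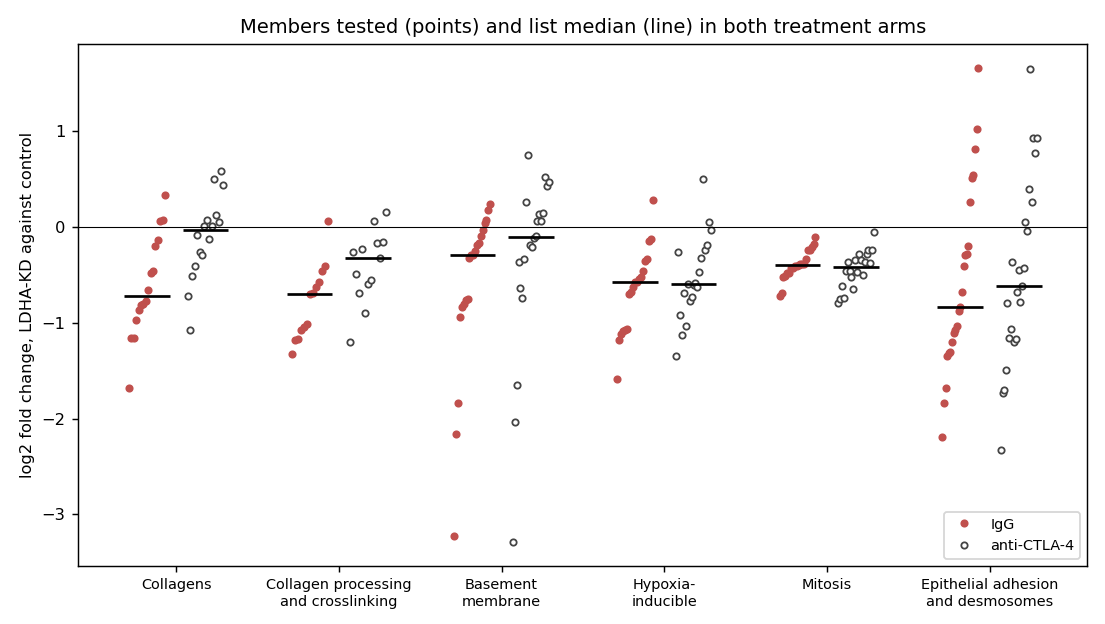
Log2 difference between LDHA-KD and control for each tested member of 6 lists, under IgG (filled points) and under anti-CTLA-4 (open points), with the list median as a line. The collagen median is -0.72 under IgG and -0.03 under anti-CTLA-4, while the hypoxia medians are -0.58 and -0.59 and the mitosis medians -0.40 and -0.42.

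A pair of laminin chains of the epithelial basement membrane were lower in every LDHA-KD tumour. Lamb3, a beta chain, measured 58.1, 65, 63.2, 68 and 54.5 CPM in LDHA-KD and 224, 314, 379 and 191 CPM in control tumours (log2FC -2.16 ± 0.19). Lama3, an alpha chain, ranged over 39.6 to 51.3 CPM against 286 to 515 CPM (log2FC -3.22 ± 0.21). For both chains the lowest control stood above the highest LDHA-KD tumour, which for Lama3 was a condition of its place among the largest folds. Under anti-CTLA-4 the log2FC was -3.29 for Lama3 and -2.03 for Lamb3. In the whole basement membrane list 10 of 20 genes were lower and none higher, and Nid2, which links laminin to collagen IV, had a log2 fold change of -0.84 ± 0.13.

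Other matrix proteins moved in both directions, with 8 lower and 2 higher of 19. Tnc, tenascin C of wounds and tumour stroma, measured 391, 445, 399.5, 447 and 419 CPM against 1236, 1332, 1267 and 1003 CPM (log2FC -1.53 ± 0.17, and -0.72 under anti-CTLA-4). Spp1, osteopontin, was the largest loss by CPM, at 4091, 5204, 2257, 4881 and 3963 CPM against 14490, 7760, 8162 and 12280 CPM (log2FC -1.39 ± 0.28). Mgp, which inhibits calcification, was a gain, at 333 to 411 CPM against 78.4 to 146 CPM (log2FC 1.8 ± 0.26). Integrins were lower in 9 of 15, a count of 4 without control replicate 3 or without control replicate 4. Itgb6, an epithelial integrin chain that activates TGF-beta, had the largest fall of those named (log2FC -2.09 ± 0.23), and Itgb8, the other chain known for that activity, was 1 of 2 that rose (log2FC 1.08 ± 0.22).

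Metalloproteinases and their inhibitors were lower in 8 of 19, and none rose. Mmp10, stromelysin 2, measured 36.4, 19.8, 41.3, 50.4 and 39.3 CPM in LDHA-KD and 208, 188, 169 and 95.9 CPM in control tumours (log2FC -2.14 ± 0.25). Mmp3, stromelysin 1, ranged over 87 to 118 CPM against 221 to 276 CPM (log2FC -1.18 ± 0.14). The aggrecanases Adamts1 (log2FC -1.72 ± 0.17) and Adamts4 (log2FC -1.29 ± 0.15) fell as well. Of 25 complement and coagulation genes 9 were higher and 4 lower. The plasminogen activator Plau was among the lower ones (log2FC -0.86 ± 0.11). Serpine2, protease nexin 1, a thrombin and urokinase inhibitor, rose from between 55.4 and 73.4 CPM in controls to between 156 and 194 CPM (log2FC 1.49 ± 0.11).

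Genes of epithelial junctions were mostly lower. Of 18 tight junction genes, 10 were lower and 2 higher, and of 23 genes of epithelial adhesion and desmosomes, 14 were lower and 1 higher. Cldn4, a barrier claudin, measured 33.7, 30.8, 29.3, 38.3 and 30.2 CPM against 260.4, 256, 204 and 185 CPM (log2FC -2.8 ± 0.17). Cldn7, a claudin of the lateral membrane, moved against it (log2FC 1.38 ± 0.10). Jup, plakoglobin of the desmosomal plaque, measured 59, 71.4, 43.2, 60.4 and 52.7 CPM against 162, 184, 209.7 and 177 CPM (log2FC -1.68 ± 0.15), Dsg2, a desmosomal cadherin, had a log2 fold change of -1.31 ± 0.10, and Dsp, desmoplakin, -1.2 ± 0.14. Ppl, periplakin, which ties keratins to the plaque, was the adhesion gene that rose (log2FC 0.82 ± 0.17), and without control replicate 3 the count of risers was 3. Keratins were lower in 4 of 15, with Krt7, a simple epithelial keratin, at 79.3 to 172 CPM against 409.6 to 537 CPM and Krt14, a basal keratin, at 64.8 to 137 CPM against 233 to 355 CPM. The marker list of the 4T1 line and luminal epithelium, which shares genes such as Cldn4, Epcam and Krt7 with these lists, had 6 lower and 2 higher of 15, and the part of tumour cell content in the junction values was not tested.

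Genes of the mesenchymal programme were mostly lower as well. Of 15 genes of epithelial-mesenchymal transition, 8 were lower and 2 higher. Acta2, smooth muscle actin, measured 65, 63.9, 71.8, 59 and 68.6 CPM in LDHA-KD and 179.7, 182, 175 and 147 CPM in control tumours (log2FC -1.38 ± 0.18). Tagln, an actin-binding protein of smooth muscle, fell by 1.59 on the log2 scale, and Twist1, a transcription factor of the transition, by 0.77. Zeb2, another such factor, rose (log2FC 0.43 ± 0.09), as did Foxc2 (log2FC 0.48 ± 0.11). Markers of pericytes and smooth muscle summed to 280.2 to 310.0 CPM in LDHA-KD and 596 to 632 CPM in control tumours, with 7 of 11 lower and none higher. Mcam, a mural and endothelial adhesion molecule (log2FC -1.05 ± 0.07), and Cspg4, the pericyte proteoglycan NG2 (log2FC -2.04 ± 0.20), belong to that list. The part of mural cell content in the mesenchymal values was not tested.

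Angiogenic factors and receptors were lower in 17 of 23, and none was higher, with a median of -0.76. Vegfc, the main growth factor for lymphatic vessels, measured 7.0, 8.72, 7.31, 9.35 and 7.81 CPM against 53.9, 41.6, 36 and 26.3 CPM (log2FC -2.3 ± 0.18). Pdgfb, which recruits pericytes, measured 19.8, 20.9, 14.9, 19.9 and 19.5 CPM against 85.5, 68.7, 70.8 and 57.2 CPM (log2FC -1.89 ± 0.14), and Pdgfa, its paralog, had a log2 fold change of -1.66 ± 0.17. For both Vegfc and Pdgfb every control tumour stood above every LDHA-KD tumour. Apln, the vascular peptide apelin, fell by 1.30 on the log2 scale. Endothelial markers summed to 380.1 to 451 CPM against 487 to 656 CPM, with 10 of 14 lower and 1 higher. The part of vessel content in these values was not tested.

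**Figure D4:**
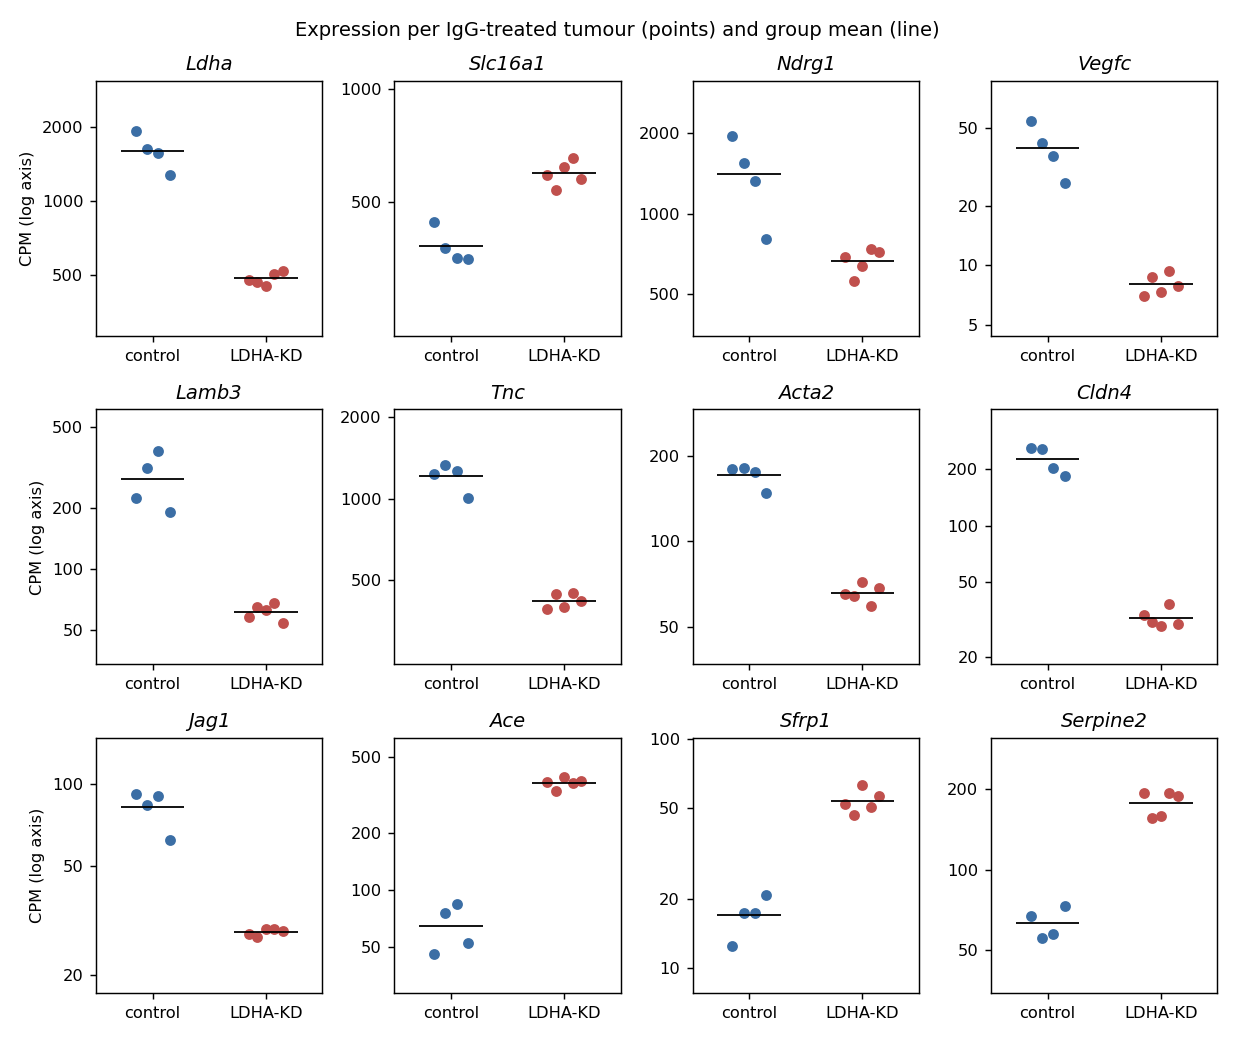
CPM on a log axis in the 4 control (blue) and 5 LDHA-KD (red) tumours under IgG for 12 genes, one point per tumour and the group mean as a line. The 12 genes were picked from the called genes with their values known, and in each panel the 2 groups do not overlap. Of all called genes 78.8% show no overlap, as do 15.1% (higher) and 15.2% (lower) of all genes tested. The 4 genes that are higher in LDHA-KD tumours are Slc16a1, Ace, Sfrp1 and Serpine2.

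Several ligands of developmental pathways were lower. Of 32 genes of the WNT pathway, 9 were lower and 2 higher. Wnt7a measured 2.97, 2.64, 3.49, 3.83 and 2.94 CPM against 17.8, 21, 20.3 and 10.7 CPM (log2FC -2.46 ± 0.20), and Wnt10b 1.74, 1.85, 0.764, 1.05 and 1.17 CPM against 7.07, 6.73, 7.9 and 7.16 CPM (log2FC -2.45 ± 0.23). Wnt10a, a close relative, had a log2 fold change of -1.8 ± 0.20. Both rises were outside the ligands, in the receptor Fzd7 (log2FC 0.60 ± 0.06) and in Sfrp1, a secreted WNT antagonist at 46.5 to 63.2 CPM against 12.5 to 20.9 CPM (log2FC 1.66 ± 0.18). The Notch list had 6 lower and 1 higher of 16. Jag1, a Notch ligand, measured 28.2, 27.5, 29.4, 29.6 and 28.9 CPM against 92.5, 83.9, 90.9 and 62.7 CPM (log2FC -1.52 ± 0.13), with little spread among the LDHA-KD tumours. Dll4, the ligand of sprouting vessels, had a log2 fold change of -1.18 ± 0.09, and the Notch targets Hes1 (log2FC -0.87 ± 0.10) and Heyl (log2FC -1.12 ± 0.22) were lower too. Nrarp, a feedback inhibitor of Notch, was the member that rose (log2FC 0.91 ± 0.31), and it missed the threshold without LDHA-KD replicate 1 or 5 or control replicate 1 or 5 (adjusted p 0.0531 to 0.115).

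In the TGF-beta and BMP list 15 of 30 genes were lower and 3 higher. The ligands divided, Tgfb2 falling from between 11.4 and 15.2 CPM in controls to between 3.34 and 3.98 CPM (log2FC -1.9 ± 0.14) and Tgfb3 rising (log2FC 0.49 ± 0.13). Grem1, a BMP antagonist, measured 37.2 to 44.5 CPM against 78.7 to 115 CPM (log2FC -1.24 ± 0.17). The BMP targets Id3 (log2FC -0.65 ± 0.10) and Id2 (log2FC 0.48 ± 0.13) moved apart. Of 15 genes of the EGF family and its receptors 7 were lower and 3 higher. The lower ones included the receptor Erbb3 (log2FC -1.49 ± 0.14) and the ligand Areg (log2FC -1.0 ± 0.17). Lrig3 (log2FC 1.41 ± 0.12) and Lrig1 (log2FC 0.62 ± 0.08), of a family that includes restrainers of these receptors, rose. In the FGF list 8 were lower and 3 higher of 20. Fgfbp1, a carrier that releases FGFs from the matrix, measured 27.2, 25.1, 11.9, 23.4 and 21 CPM against 236, 172, 148 and 141 CPM (log2FC -3.0 ± 0.24), and the receptor Fgfr1 was lower as well (log2FC -1.01 ± 0.18). Fgf1, an FGF without a secretion signal, was higher, at 8.9 to 15.3 CPM against 1.57 to 1.85 CPM (log2FC 2.74 ± 0.31). The mTOR, AMPK and insulin list had 6 higher and 5 lower of 27. In it Igfbp3, an insulin-like growth factor carrier, was lower (log2FC -1.8 ± 0.14), and Igfbp4, its relative, higher (log2FC 0.57 ± 0.07).

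Most lipid mediator genes rose. Of 17 prostaglandin and leukotriene genes, 10 were higher and 1 lower, with a median of 0.53. Tbxas1, thromboxane synthase, measured 36.2, 44.2, 33.4, 46.6 and 41.1 CPM against 13.8, 17.6, 14.6 and 16 CPM (log2FC 1.38 ± 0.12). Alox5, the enzyme that opens leukotriene synthesis, ranged over 13.8 to 16.5 CPM against 3.12 to 7.69 CPM (log2FC 1.33 ± 0.20), and its partner Alox5ap rose (log2FC 0.76 ± 0.14). Cathepsins rose in 8 of 14, among them Ctss, the class II processing protease, at 843 to 939 CPM against 396 to 561 CPM. Toll-like receptors rose in 8 of 12, Tlr1 among them (log2FC 1.11 ± 0.12). Of 22 cytokines and myeloid growth factors 2 were higher, or 4 without control replicate 1 or in a fit to only the 9 IgG samples, and 4 lower. Csf1, the macrophage growth factor, rose from between 99.3 and 132 CPM in controls to between 254 and 271 CPM (log2FC 1.15 ± 0.13). Markers of mast cells, which make these lipids, rose in 9 of 10 and summed to 464 to 844 CPM against 121 to 182 CPM. T cell markers summed to 94.6 to 149.6 CPM against 29.4 to 51.2 CPM, and neutrophil markers had 1 higher of 10. The part of these cells in the lipid, cathepsin and receptor values was not tested.

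In the extracellular adenosine pathway, which turns ATP into an immunosuppressive nucleoside, 5 of 10 genes were higher and 1 lower. The count of higher genes was 3 without control replicate 1. Nt5e, the ectoenzyme CD73 that makes adenosine, measured 839.7, 907, 714, 980.5 and 854 CPM against 1720, 1343, 1565 and 1213 CPM (log2FC -0.76 ± 0.11). Ada, which removes adenosine, rose from between 10.5 and 14.2 CPM in controls to between 18.5 and 22.6 CPM (log2FC 0.64 ± 0.10). The 2 genes moved in opposite directions without overlap of the groups.

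Among single genes outside the pathways above, several receptors and adhesion molecules had large folds. They are a selection: some larger rises under the naming rule, up to a log2 fold change of 4.08, are not reported here. Scara5, a ferritin receptor, measured 41.2, 39.8, 44.5, 41.7 and 41 CPM against 2.46, 6.04, 4.36 and 5.3 CPM (log2FC 3.2 ± 0.26). Cdon, a cell surface coreceptor of hedgehog, measured 184, 258, 92.9, 202 and 179 CPM against 19.1, 20.7, 22.9 and 30.9 CPM (log2FC 2.97 ± 0.38), with LDHA-KD replicate 3 lowest of its group. Ace, the angiotensin-converting enzyme, measured 372, 332, 394, 364 and 373 CPM against 46.1, 75.5, 85.1 and 52.6 CPM (log2FC 2.5 ± 0.20). Amigo2, an adhesion molecule first described in neurons, ranged over 56.6 to 86.9 CPM against 8.09 to 12.8 CPM (log2FC 2.75 ± 0.21). Among the losses, Cadm4, a cell adhesion molecule, measured 4.31, 5.64, 4.0, 5.68 and 3.59 CPM against 25.2, 25.9, 32.3 and 27.4 CPM (log2FC -2.58 ± 0.15). Otop1, a proton channel, ranged over 6.01 to 8.21 CPM against 30.5 to 42.7 CPM (log2FC -2.41 ± 0.16), and Muc1, an epithelial mucin, over 7.54 to 19.3 CPM against 31.5 to 82.4 CPM (log2FC -2.4 ± 0.31). By CPM, the gains included Lyz2, lysozyme of myeloid cells (log2FC 1.34 ± 0.36), Cp, the ferroxidase ceruloplasmin (log2FC 1.22 ± 0.20), and Slpi, a protease inhibitor of mucosa (log2FC 2.45 ± 0.24). For Lyz2 the groups overlapped, as control replicate 5 at 1354 CPM exceeded LDHA-KD replicate 3 at 1100 CPM.

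The changes were not spread evenly over the genome. On the X chromosome 32.5% of tested genes were lower and 9.51% higher, and on chromosome 5 33.5% were lower and 7.39% higher. Chromosomes 8 and 10 leaned the other way, with 29.6% and 26.5% of genes higher. Chromosome 17 had 27.2% lower and 11.6% higher, and chromosome 3 had 23.3% higher and 8.38% lower. In each library the median level of a chromosome's genes was taken relative to the mean of the 9 libraries. This median did not overlap between the groups on 12 of 20 chromosomes. On chromosome 5 it ran from -0.099 to -0.061 in LDHA-KD and from 0.093 to 0.117 in control tumours, and on chromosome 8 from 0.04 to 0.093 and from -0.121 to -0.058. Between 5 and 40 Mb of the X chromosome, 72 of 123 genes were lower (58.5%), with a median log2 fold change of -0.56 under both treatments. There the medians per library ran from -0.288 to -0.226 in LDHA-KD and from 0.273 to 0.324 in control tumours. On the rest of the X chromosome 106 of 424 genes were lower (25%). Several genes named above lie in these regions. Ebp lies in that stretch of the X chromosome, and Cldn4, Spp1, Pcolce, Pdgfa, Otop1, Fgfbp1, Cenpa and Rfc3 lie on chromosome 5. Slc16a1, Ctss and Cp, all higher, lie on chromosome 3, and Hsp90ab1 and Ndc80, both lower, on chromosome 17. Not all named genes moved with their chromosome: Ddit4 on chromosome 10 and Muc1 on chromosome 3 were lower, and Hsph1 on chromosome 5 was higher. Cdon was higher on chromosome 9, where 23.2% of genes were lower and 14.1% higher. It lies between 35 and 40 Mb, a window with 20 of 35 genes higher and 3 lower. The median log2 fold change of that window was 0.52 (0.48 under anti-CTLA-4). The part of these regions in the values of single genes was not tested. Of the 5 Mb windows with at least 10 tested genes, the one with the median farthest from 0 was chromosome 6 from 40 to 45 Mb, at 1.08 (0.76 under anti-CTLA-4), with 18 of 35 genes higher and 4 lower. Of its 14 gene segments of the T cell receptor beta chain 12 were higher, with a median of 2.09, and its 21 other genes had 6 higher and 4 lower, with a median of 0.02. The X chromosome stretch was chosen after the values were seen, and DNA copy number was not measured.

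**Figure D5:**
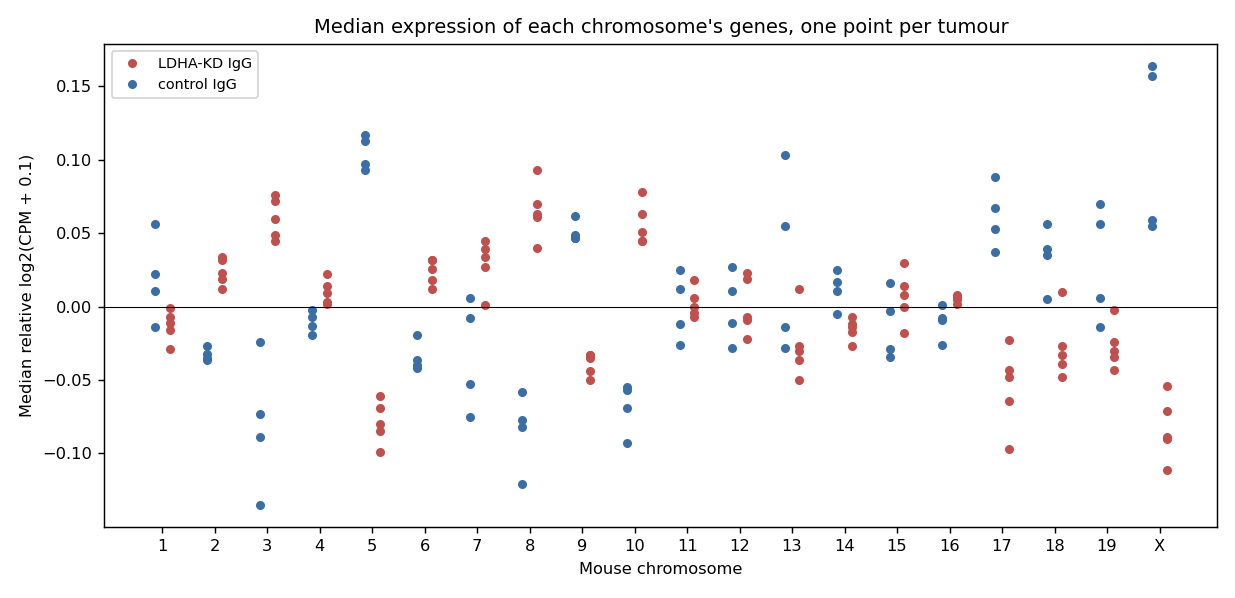
Median relative log2(CPM + 0.1) of the tested genes on each chromosome, one point per IgG tumour, relative to the mean of the 9 tumours and to each library's own median. On chromosomes 5 and X the LDHA-KD points lie below the control points, and on chromosomes 8 and 10 above them.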

How the data were processed

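Raw gene counts for 19 samples were deposited by the authors without normalization, made with HTSeq 0.5.3 on build mm10 per the submitters' processing notes, which also name Picard 1.124. Per the labels' protocols, libraries were poly(A)-selected, made with a stranded TruSeq kit and sequenced as read pairs on a HiSeq instrument. The aligner and the strand setting of counting are not given in the sources used here, so overlapping, antisense and near-identical genes may share reads, and 61 of the 134 named genes overlap another annotated gene. The 5 summary lines were left out. In the IgG libraries reads outside genes were 9.04% to 11.6% and reads without a unique alignment 11.6% to 14.1%.

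One edgeR 4.0.16 quasi-likelihood model (R 4.3.3) was fitted to all 19 samples with 4 group coefficients and no covariates, TMM scaling, the filterByExpr filter and Benjamini-Hochberg adjustment over 16763 genes at 0.05. The reported contrast is LDHA-KD IgG minus control IgG. The alternatives used DESeq2 1.42.0 and limma 3.58.1, other scalings and filters, a stricter threshold, a replicate block and each of the 9 libraries left out. Coordinates came from GENCODE M21 on GRCm38 and promoter windows from RefSeq GRCm38.p6. Chromosome levels used log2(CPM + 0.1). In simulated counts (16262 genes), 82 genes were changed 1.5-fold, 58 were changed 2-fold and 60 were changed 4-fold. Of these, 48.78%, 75.86% and 96.67% were recovered, with 7 false calls. Far more genes were called in the real data, so these rates may not hold there. The smallest chi-square per gene between replicates, 5.012, was above sampling noise, so no library was counted as a copy of another.

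Named genes were Ldha, its isoforms and transporters, the largest called folds and CPM shifts, and in each list described the called members of smallest p with those that moved against the rest. The largest folds were taken only from genes whose groups did not overlap. For genes named by that condition, separation of the groups is not a result. Some genes that this rule names are not reported here. The comparison, the lists and the named genes were chosen with earlier results of these data known, and genes named outside that rule were chosen after their values were seen.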

Additional observations from a re-analysis of the deposited data

Results flagged for a closer look

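Among the named genes, 268 groups of 4 or 5 tumours were examined for 1 sample far from the rest of its group, by Dixon's ratio of the gap to the range at its 95% critical value. In 23 groups a sample stood apart. The critical value gives about 1 in 20 for independent groups of normally distributed values. These genes were measured in the same 9 libraries, so the count cannot be read against that rate. LDHA-KD replicate 3 was that sample in 8 groups, control replicate 1 in 5, LDHA-KD replicate 2 in 4, control replicate 3 in 3, control replicate 5 in 2 and LDHA-KD replicate 4 in 1.

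LDHA-KD replicate 3 was lowest for P4ha2 (22.3 CPM, the others from 27.8 to 29), Pdgfb (14.9 CPM, the others from 19.5 to 20.9) and Cp (1084 CPM, the others from 1534 to 1628). It was highest for mt-Co3 (50.45 CPM, the others from 0.0617 to 0.282), Pdk3 (41.2 CPM, the others from 34.8 to 36.2), Kif23 (85.8 CPM, the others from 71.7 to 75.3), Rfc3 (56.3 CPM, the others from 43.8 to 47.4) and Col6a3 (268.9 CPM, the others from 159 to 182). LDHA-KD replicate 2 was highest for Ppl (106 CPM, the others from 75.4 to 83.9), Lrig1 (327 CPM, the others from 278 to 289), Otop1 (8.21 CPM, the others from 6.01 to 6.51) and Nnt (63.0 CPM, the others from 55.4 to 56.8), and LDHA-KD replicate 4 was lowest for Tet3 (66.6 CPM, the others from 75.5 to 77.1).

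Control replicate 1 was highest for Slc20a1 (361 CPM, the others from 243 to 249), Me1 (48.5 CPM, the others from 35 to 37.3) and Foxc2 (14.6 CPM, the others from 10.2 to 10.7), and lowest for Pdgfra (84.2 CPM, the others from 119 to 121) and Tgfb3 (76.4 CPM, the others from 94.6 to 96.7). Control replicate 3 was lowest for Kif23 (94.97 CPM, the others from 104 to 104.7) and Msh6 (79.3 CPM, the others from 84.8 to 85.6), and highest for Itgb8 (1.39 CPM, the others from 0.998 to 1.06). Control replicate 5 was lowest for Dsg2 (67.3 CPM, the others from 81.4 to 84.1) and highest for Lyz2 (1354 CPM, the others from 449 to 468).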

How the results depend on the processing

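A count of 5752 calls rests on 5 and 4 samples whose independence is not labelled, and small changes are the least secure. At an adjusted p below 0.01 the counts were 1809 higher and 1911 lower, and other settings kept the 4 counts of calls within 1.5 times their reported values. At that stricter threshold the lower members were 1 for glycolysis, 8 for hypoxia, 5 for DNA repair, 5 for collagens, 5 for other matrix proteins, 4 for integrins, 3 for the clock and 2 for fibroblast markers, and the higher members 3 for sterol efflux, 3 for adenosine, 1 for the clock and 0 for ribosomal proteins, where lower members were 2. Leaving out each library in turn gave 2301 to 2689 genes higher and 2409 to 2818 lower. Pairing of the samples by replicate number was not shown, and these values cannot exclude it. Deviations of same-numbered samples correlated at 0.091, -0.089, 0.0061 and -0.111, and only control replicate 1 matched its own number best. A fit with the replicate number as a block called 2943 higher and 2998 lower. With that block, 5 neutrophil markers, 8 ribosomal protein genes, 4 complex I subunits and 4 cytokines were higher, against 1, 3, 2 and 2 without it. Upper-quartile scaling called 3047 higher and 2729 lower and shifted the median by 0.022. Among the named genes the 1 change of sign was Slc16a3, whose log2 difference ran from -0.216 to 0.010 with 1 library left out, and was 0.010 without control replicate 3, not called either way. Ldhd also passed the threshold with the replicate block (adjusted p 0.0207).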

Other observations

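The shares called among genes of body patterning and chromatin can be read against the 16.8% higher and 17.5% lower of all genes. Of 27 Hox genes, 4 were higher (14.8%) and 7 lower (25.9%). Hoxa3 rose from between 8.86 and 10.0 CPM in controls to between 13.2 and 18.1 CPM (log2FC 0.77 ± 0.10), and Hoxb7 fell from between 2.79 and 4.08 CPM in controls to between 1.08 and 2.1 CPM (log2FC -1.01 ± 0.22). Of 25 chromatin and DNA methylation enzymes, 7 were lower (28%), including the Polycomb methyltransferase Ezh2 (log2FC -0.41 ± 0.07) and the histone deacetylase Hdac2 (log2FC -0.66 ± 0.13), and 3 higher (12%), including the methylcytosine dioxygenase Tet3 (log2FC 0.46 ± 0.11). In the circadian clock, 6 of 16 genes were lower (37.5%) and 3 higher (18.8%). Arntl, the activator BMAL1, fell from between 16.8 and 19.3 CPM in controls to between 9.94 and 12.7 CPM (log2FC -0.72 ± 0.10), and Cry2, a repressor, rose (log2FC 0.54 ± 0.10). The hour of tissue collection is not given in the sources used here.

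Of 29 genes of axon guidance, 12 were lower (41.4%) and 5 higher (17.2%). Ntn1, netrin 1, rose from between 19.1 and 24.9 CPM in controls to between 45.9 and 87.1 CPM (log2FC 1.6 ± 0.19), while Sema3b (log2FC -1.08 ± 0.10) and Efnb1 (log2FC -1.34 ± 0.15) fell. Of 260 solute carriers 65 were higher (25%) and 36 lower (13.8%). Slc20a1, a phosphate transporter, fell from between 243 and 361 CPM in controls to between 73.7 and 108 CPM (log2FC -1.56 ± 0.12).

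One mitochondrially encoded gene, mt-Co3, was called higher through a single library. It measured 50.5 CPM in LDHA-KD replicate 3 and 0.058 to 0.238 CPM in the controls, with the other LDHA-KD libraries from 0.0617 to 0.282 CPM, and under anti-CTLA-4 its log2 difference was 0.04.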
